A study of Mus musculus with 12 samples.

Results

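The MHC class II presentation genes are 10 mouse genes that make or load the class II molecules with which a macrophage shows peptides to T cells: H2-Aa, H2-Ab1, H2-Eb1, H2-DMa, H2-DMb1, H2-DMb2, Cd74, Ctss, Ifi30 and Ciita. They were chosen by gene symbol, and they are 10 of the 16593 named genes on the BeadArray, with 15 of its 25697 probes. H2-Ab1 has 4 probes, Cd74 and Ifi30 have 2 each, and each of the other 7 genes has 1. The first 6 genes named lie on mouse chromosome 17, in the region that also holds Psmb8, and the other 4 lie on other chromosomes.

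The study set alveolar macrophages of Lmp7 (Psmb8) knockout mice against those of wild-type mice, with (M2) and without (M0) IL-4 polarization, and its title names the question of how loss of the immunoproteasome bears on alternative polarization. The 4 groups had 3 arrays each: knockout cells given 20 ng/ml of IL-4 for 24 h at most (LMP7ko_M2), unpolarized knockout cells (LMP7ko_M0), wild-type cells given the same IL-4 treatment (WT_M2) and unpolarized wild-type cells (WT_M0). All mice were C57Bl/6J, 8 to 12 weeks old and kept free of specific pathogens, and the cells came from bronchoalveolar lavage. No label says how the Lmp7 allele was made, how many mice gave each array or whether the 3 arrays of a group came from separate mice, so the p-values measure the spread between these arrays, which may be technical.

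Class II molecules bind peptides from proteins that were taken up and cut in endosomes. H2-Aa and H2-Ab1 encode the alpha and beta chain of I-A, and H2-Eb1 encodes the beta chain of I-E, which C57BL/6 mice do not assemble because they lack the I-E alpha chain. New chains are held by the invariant chain, encoded by Cd74; cathepsin S (Ctss) cuts it down, and H2-DM, made of H2-DMa with H2-DMb1 or H2-DMb2, exchanges the remaining fragment for a peptide. Ifi30 encodes the lysosomal thiol reductase GILT, which opens disulfide bonds of endocytosed proteins. Ciita encodes the coactivator that binds to the RFX and NF-Y proteins on class II promoters. IL-4 is known to raise class II on macrophages and B cells.

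The stretches from 125 to 31 bases before the start of 4 of the members are printed, because they hold the letters that RFX and NF-Y are known to read and because each of these genes moved in at least 1 of the comparisons that follow. Capitals mark CCAATCA on either strand, which reads TGATTGG here and holds the NF-Y core CCAAT, and AACNGATG on either strand, a part of the X box that RFX binds; both strings were chosen after the sequences had been seen. The sequences are those of RefSeq on build GRCm38.p6, given 5′ to 3′ on the gene's own strand.
H2-Aa, chr17:34287854-34287948, minus strand: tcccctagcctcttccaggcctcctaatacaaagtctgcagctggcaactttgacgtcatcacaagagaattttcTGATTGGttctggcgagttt
H2-Eb1, chr17:34305742-34305836, plus strand: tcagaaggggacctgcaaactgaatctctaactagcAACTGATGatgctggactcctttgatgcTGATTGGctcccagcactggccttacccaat
H2-DMb1, chr17:34153066-34153160, plus strand: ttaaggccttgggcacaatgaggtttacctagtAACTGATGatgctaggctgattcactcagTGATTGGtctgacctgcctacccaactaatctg
H2-DMb2, chr17:34145124-34145218, plus strand: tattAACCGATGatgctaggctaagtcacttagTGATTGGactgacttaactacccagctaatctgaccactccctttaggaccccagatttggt

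In these 4 genes CCAATCA began 50 bases before the start of H2-Aa, 61 before that of H2-Eb1, 63 before that of H2-DMb1 and 92 before that of H2-DMb2. AACNGATG began 89 bases before the start of H2-Eb1, 92 before that of H2-DMb1 and 121 before that of H2-DMb2, and it did not occur in the 300-base window of H2-Aa. CCAATCA was found in 7.82% and AACNGATG in 2.32% of the 32851 promoter windows of the same table, and 16 windows held the first string within 44 bases after the second. Of those 16 windows, 3 were the windows of H2-Eb1, H2-DMb1 and H2-DMb2. The windows of H2-DMa and Ifi30 held neither string, and that of Ctss held AACNGATG alone, 207 bases before its start. A match describes letters in a window and says nothing about whether a protein sits there.

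Between 25.5% and 34.2% of the probes were detected on an array, that is, had a detection p-value under 0.05; the lowest shares were those of array a of LMP7ko_M2, LMP7ko_M0 and WT_M0. Signals are given as log2 intensity after quantile normalization. A gene was tested where any of its probes was detected on at least 3 of the 12 arrays, and the brightest such probe stood for it. The targeted gene, Psmb8, was detected on none of the 6 knockout arrays, at 5.38 to 5.81, and on all 6 wild-type arrays, at 7.55 to 8.06; it was at least 3.32-fold lower in LMP7ko_M2 than in WT_M2 and at least 3.43-fold lower in LMP7ko_M0 than in WT_M0. Such a bound sets the mean of the detected group against the mean, over the other group's arrays, of the lowest signal among detected probes or the probe's own signal, whichever is higher. Where the Psmb8 probe sits relative to the targeted sequence is not given here. Of 12 alveolar macrophage markers, 10 were detected, and Car4 and Fabp1 were not.

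Of the 10 class II genes, 7 were detected on all 12 arrays, namely H2-Aa, H2-Ab1, H2-DMa, H2-DMb1, Cd74, Ctss and Ifi30. H2-DMb2 was detected on 3 arrays of LMP7ko_M2, 1 of LMP7ko_M0, 2 of WT_M2 and none of WT_M0. H2-Eb1 was detected on 2 of 3 arrays in each knockout group and on no wild-type array, so it was tested only because of its signal in knockout cells. Ciita was detected on no array, with background-subtracted intensities between -21 and 23, and was not tested; its transcript was not detectable with this probe.

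Among the 9 members tested, 3 were higher in LMP7ko_M0 than in WT_M0 at an adjusted p under 0.05 (H2-Aa, H2-Ab1 and Cd74) and none was lower, where 0.381% of all 6563 genes tested were called higher. In IL-4-treated cells 3 were higher in LMP7ko_M2 than in WT_M2 (H2-Aa, H2-Ab1 and H2-Eb1) and none was lower, where 0.67% of all genes were called higher. Averaged over both states, 6 members were higher in knockout cells (H2-Aa, H2-Ab1, H2-Eb1, H2-DMa, H2-DMb1 and Cd74), against 1.4% of all genes. With only the 7 members detected on every array, these counts were 3, 2 and 5. A fit of only the 3005 genes with a detection p under 0.01 on all 12 arrays called larger shares. It called 1.9%, 7.05% and 9.18% of them in either direction, in the same order. The median genotype difference of the 9 members was 0.56 log2 units in unpolarized cells and 0.61 in IL-4-treated cells, while the median of all genes was 3e-04 and -0.0094. With members undetected in 1 of the groups set at their bounds (defined above for Psmb8), the members' medians were 0.44 and 0.61. In bulk RNA, more cells of a type and more RNA per cell cannot be told apart.

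IL-4 raised 5 of the 9 tested members in knockout cells (H2-DMa, H2-DMb1, H2-DMb2, Cd74 and Ifi30), where 10.3% of all genes were called higher. It raised 6 in wild-type cells (H2-Aa, H2-Ab1, H2-DMa, H2-DMb1, Cd74 and Ifi30), where 8.44% of all genes were called higher, and no member fell in either genotype. With the 7 members detected on every array, the counts were 4 in knockout and 6 in wild-type cells. A fit of only the 3005 genes with a detection p under 0.01 on all 12 arrays called larger shares. It called 39.4% of them in either direction in knockout cells and 30.8% in wild-type cells. The median IL-4 difference of the 9 members was 0.47 log2 units in knockout cells and 0.55 in wild-type cells.

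**Figure D1:**
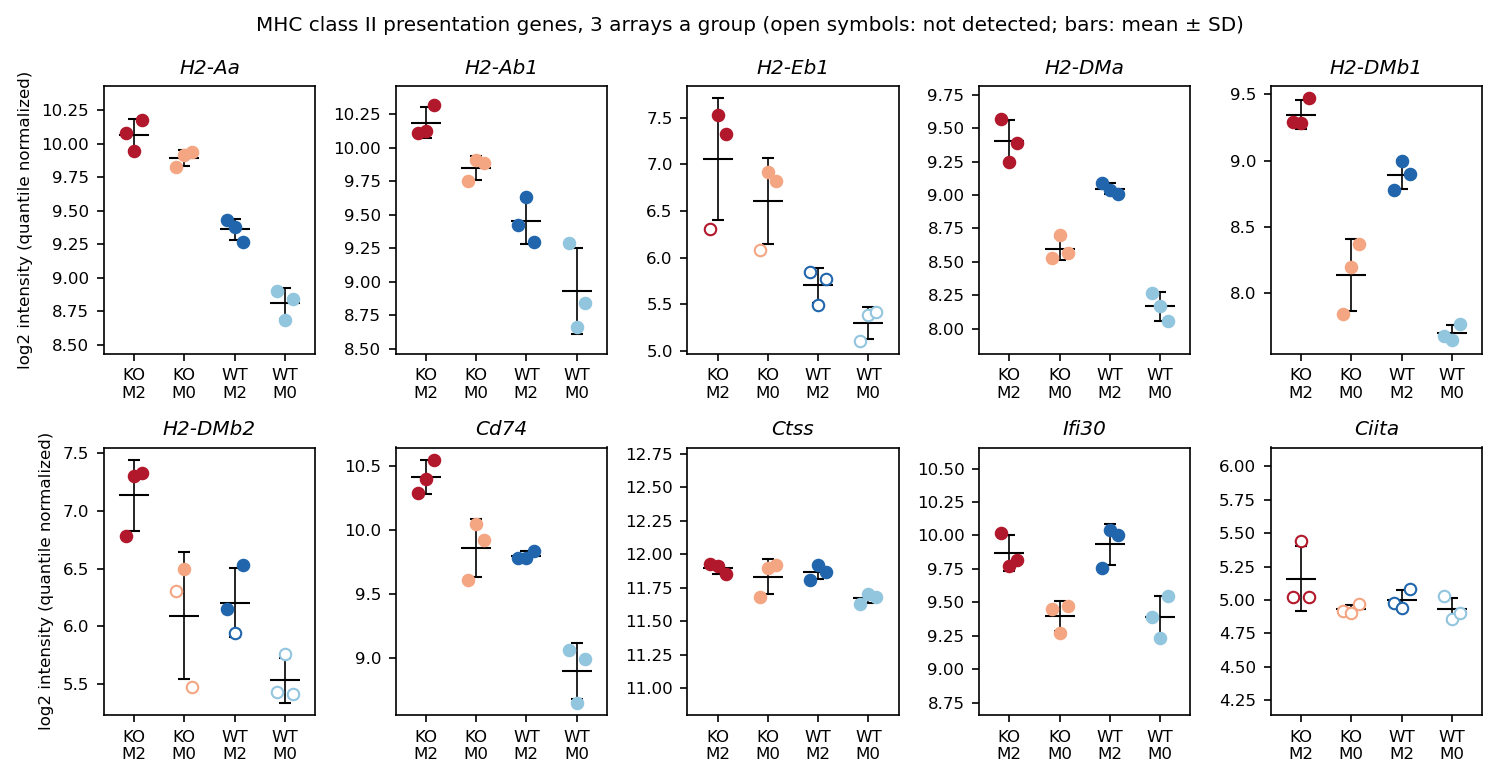
Log2 intensity (vertical axis) of the brightest probe of each of the 10 class II genes on the 3 arrays of LMP7ko_M2, LMP7ko_M0, WT_M2 and WT_M0 (horizontal axis). Filled points were detected, open points were not, and bars give the mean ± SD. The 6 knockout arrays lie above the 6 wild-type arrays for H2-Aa and H2-Ab1. H2-Eb1 is open on all wild-type arrays and on array a of both knockout groups, and Ciita is open on all arrays.

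H2-Aa, the I-A alpha chain, read 10.08, 9.95 and 10.18 on the LMP7ko_M2 arrays and 9.83, 9.92 and 9.94 on the LMP7ko_M0 arrays, against 9.43, 9.38 and 9.27 in WT_M2 and 8.90, 8.68 and 8.84 in WT_M0. All 6 knockout arrays were above all 6 wild-type arrays, and within each genotype the IL-4-treated arrays were above the unpolarized ones. The knockout level was higher by 1.09 ± 0.104 (SE) log2 units in unpolarized cells (adjusted p = 0.00035) and by 0.71 ± 0.104 in IL-4-treated cells (adjusted p = 0.00571). IL-4 raised H2-Aa by 0.55 ± 0.104 log2 units in wild-type cells (adjusted p = 0.00451). In knockout cells the IL-4 difference was 0.17 ± 0.104, with a 95% interval from -0.06 to 0.4, and did not pass the test (adjusted p = 0.289). Median scaling of the arrays in place of quantile normalization ended the genotype call in IL-4-treated cells (adjusted p = 0.152), as did fitting only the groups compared (adjusted p = 0.0546), and median scaling also ended the call for IL-4 in wild-type cells (adjusted p = 0.0815).

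H2-Ab1, the I-A beta chain, had by its brightest probe 10.11, 10.13 and 10.32 in LMP7ko_M2 and 9.75, 9.91 and 9.89 in LMP7ko_M0, against 9.42, 9.63 and 9.30 in WT_M2 and 9.29, 8.66 and 8.84 in WT_M0. Again the knockout arrays were all above the wild-type arrays, and array a of WT_M0 was close to the lowest array of WT_M2. The genotype difference was 0.92 ± 0.157 log2 units in unpolarized cells (adjusted p = 0.0269) and 0.74 ± 0.157 in IL-4-treated cells (adjusted p = 0.0406). The IL-4 difference was 0.34 ± 0.157 log2 units in knockout cells (adjusted p = 0.16) and 0.52 ± 0.157 in wild-type cells (adjusted p = 0.0453). The call in unpolarized cells was lost without any 1 of the 3 LMP7ko_M0 arrays or array b or c of WT_M0 (adjusted p = 0.0664 to 0.106). The call in IL-4-treated cells was lost without any 1 array other than a or b of WT_M0 (adjusted p = 0.0543 to 0.137), and that for IL-4 in wild-type cells without any 1 array other than a of WT_M0 (adjusted p = 0.0532 to 0.157). Fitting only the groups compared ended all 3 of these calls (adjusted p = 0.179, 0.0709 and 0.115), and median scaling ended the call in IL-4-treated cells (adjusted p = 0.139) and that for IL-4 in wild-type cells (adjusted p = 0.112).

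The 4 probes of H2-Ab1, tested each on its own among 8626 probes, all showed the genotype difference. It ranged from 0.88 to 1.35 log2 units in unpolarized cells, with adjusted p-values up to 0.0293, and from 0.74 to 1.18 in IL-4-treated cells, with adjusted p-values up to 0.0451. IL-4 gave 0.34 to 0.51 log2 units in knockout cells, past the threshold for 2 of the 4 probes, and 0.52 to 0.79 in wild-type cells, past it for all 4. The brightest probe, which stands for the gene above, was the one whose adjusted p-values were the highest in each of these comparisons. With the mean of the 4 probes, H2-Ab1 passed the threshold in both genotype comparisons (adjusted p = 0.000321 in unpolarized and 0.000998 in IL-4-treated cells) and for IL-4 in both genotypes (adjusted p = 0.00971 in knockout and 0.00206 in wild-type cells).

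H2-Eb1, the I-E beta chain, was near the limit of detection. Its probe read 6.31, 7.53 and 7.33 in LMP7ko_M2 and 6.08, 6.92 and 6.82 in LMP7ko_M0, against 5.84, 5.49 and 5.77 in WT_M2 and 5.10, 5.38 and 5.41 in WT_M0. The arrays of lowest value in both knockout groups were the arrays a, on which the probe was not detected. After normalization they lay above all wild-type arrays, on which it was not detected either. Before normalization array a of LMP7ko_M0 had an intensity of 52 and array a of WT_M2 one of 55. The order of these undetected values therefore carries no weight. H2-Eb1 was at least 2.02-fold higher in LMP7ko_M2 than in WT_M2 (adjusted p = 0.0459) and at least 1.51-fold higher in LMP7ko_M0 than in WT_M0 (adjusted p = 0.105). The unpolarized comparison passed in 6 of 24 alternatives, among them the authors' normalized values (adjusted p = 0.0447), the same values with the replicate numbers of the labels as a block (adjusted p = 0.0138) and the fit without the 3 arrays of lowest detected share (adjusted p = 0.00406). The M2 call was lost without any 1 array other than the arrays a of the knockout groups (adjusted p = 0.0578 to 0.176), and also with no filter on dim probes and with only the groups compared. The IL-4 difference in knockout cells was 0.45 ± 0.301 log2 units (adjusted p = 0.339), and in wild-type cells both states were below detection.

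H2-DMa, a subunit of the peptide exchanger H2-DM, read 9.57, 9.25 and 9.39 in LMP7ko_M2 and 8.53, 8.70 and 8.57 in LMP7ko_M0, against 9.09, 9.04 and 9.01 in WT_M2 and 8.27, 8.17 and 8.06 in WT_M0. Here the groups were ordered first by treatment: both IL-4-treated groups were above both unpolarized groups, and within each state the knockout arrays were above the wild-type arrays. IL-4 raised H2-DMa by 0.80 ± 0.108 log2 units in knockout cells (adjusted p = 0.000351) and by 0.88 ± 0.108 in wild-type cells (adjusted p = 0.000334). The genotype difference was 0.43 ± 0.108 in unpolarized cells (adjusted p = 0.137) and 0.35 ± 0.108 in IL-4-treated cells (adjusted p = 0.151). Averaged over both states it was 0.39 ± 0.0766 and passed (adjusted p = 0.017), but not after median scaling (adjusted p = 0.267) or without the 3 arrays of lowest detected share (adjusted p = 0.0638).

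H2-DMb1, its partner subunit, had the largest IL-4 difference of the 9 tested members. Its values were 9.29, 9.28 and 9.47 in LMP7ko_M2 and 7.84, 8.20 and 8.37 in LMP7ko_M0, against 8.78, 9.0 and 8.90 in WT_M2 and 7.68, 7.65 and 7.77 in WT_M0. No group overlapped another, and array a of LMP7ko_M0 was close to the unpolarized wild-type arrays. IL-4 raised it 2.31-fold in knockout cells (1.21 ± 0.137 log2 units, adjusted p = 0.000106) and 2.29-fold in wild-type cells (1.20 ± 0.137, adjusted p = 0.000197). The mean genotype difference was 0.44 ± 0.0966 log2 units (adjusted p = 0.0308), a call that was lost without any 1 array other than a of LMP7ko_M0 (adjusted p = 0.0502 to 0.0843) and after median scaling (adjusted p = 0.308).

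H2-DMb2, the alternative beta subunit of H2-DM, read 6.78, 7.30 and 7.33 in LMP7ko_M2 and 6.31, 6.5 and 5.47 in LMP7ko_M0, against 6.15, 5.94 and 6.53 in WT_M2 and 5.43, 5.76 and 5.41 in WT_M0. The LMP7ko_M2 arrays were above all others, and those of LMP7ko_M0 overlapped both wild-type groups. IL-4 raised it by 1.05 ± 0.263 log2 units in knockout cells (adjusted p = 0.0153), a call lost without array b (adjusted p = 0.0524) or c (adjusted p = 0.057) of LMP7ko_M2 and when only the groups compared were fitted (adjusted p = 0.056). In wild-type cells it was at least 1.15-fold higher in WT_M2 than in WT_M0, which did not pass the test (adjusted p = 0.116). The genotype difference in IL-4-treated cells was 0.93 ± 0.263 log2 units (adjusted p = 0.117).

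Cd74, the invariant chain, lies outside chromosome 17 and read 10.29, 10.40 and 10.55 in LMP7ko_M2 and 9.61, 10.05 and 9.92 in LMP7ko_M0, against 9.78, 9.78 and 9.84 in WT_M2 and 9.06, 8.65 and 8.99 in WT_M0. Unpolarized knockout cells and IL-4-treated wild-type cells overlapped, with LMP7ko_M2 above both and WT_M0 below both. The knockout level was higher by 0.96 ± 0.145 log2 units in unpolarized cells (adjusted p = 0.0123). That call was lost without array b (adjusted p = 0.0721) or c (adjusted p = 0.0604) of LMP7ko_M0, after median scaling (adjusted p = 0.0545) and when only the groups compared were fitted (adjusted p = 0.156). In IL-4-treated cells the difference was 0.61 ± 0.145 and missed the threshold (adjusted p = 0.0572), though it passed in 10 of 25 alternatives, among them the authors' normalized values (adjusted p = 0.0255), array weights (adjusted p = 0.0243) and the mean of the gene's probes (adjusted p = 0.0448). Averaged over both states the difference was 0.79 ± 0.102 (adjusted p = 0.00163). IL-4 raised Cd74 by 0.56 ± 0.145 log2 units in knockout cells (adjusted p = 0.0186) and by 0.90 ± 0.145 in wild-type cells (adjusted p = 0.0018). The knockout IL-4 call was lost without array a of LMP7ko_M0 (adjusted p = 0.067) or c of LMP7ko_M2 (adjusted p = 0.0685), after median scaling (adjusted p = 0.114) and when only the groups compared were fitted (adjusted p = 0.0538).

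The second Cd74 probe gave genotype differences of 0.77 log2 units in unpolarized cells (adjusted p = 0.0185) and 0.56 in IL-4-treated cells (adjusted p = 0.0498). Its IL-4 differences were 0.42 in knockout cells (adjusted p = 0.0312) and 0.64 in wild-type cells (adjusted p = 0.00563). Both probes thus moved the same way in all 4 comparisons.

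Ctss, the protease that trims the invariant chain, read 11.93, 11.91 and 11.85 in LMP7ko_M2 and 11.68, 11.90 and 11.92 in LMP7ko_M0, against 11.81, 11.92 and 11.87 in WT_M2 and 11.63, 11.70 and 11.68 in WT_M0. The 4 groups lay within a narrow band, and array a of LMP7ko_M0 reached down to the WT_M0 arrays. No comparison passed the test: the 95% interval of the genotype difference ran from -0.05 to 0.37 log2 units in unpolarized cells and from -0.18 to 0.24 in IL-4-treated cells. The IL-4 difference was 0.07 ± 0.0969 in knockout cells (adjusted p = 0.705) and 0.19 ± 0.0969 in wild-type cells (adjusted p = 0.215).

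Ifi30, the thiol reductase, read 10.02, 9.77 and 9.82 in LMP7ko_M2 and 9.45, 9.27 and 9.47 in LMP7ko_M0, against 9.76, 10.04 and 10 in WT_M2 and 9.39, 9.23 and 9.55 in WT_M0. The groups of the same treatment overlapped between genotypes, and the IL-4-treated arrays were above the unpolarized ones. IL-4 raised Ifi30 by 0.47 ± 0.126 log2 units in knockout cells (adjusted p = 0.0199) and by 0.54 ± 0.126 in wild-type cells (adjusted p = 0.0137). The genotype difference had a 95% interval from -0.27 to 0.28 log2 units in unpolarized cells and from -0.34 to 0.21 in IL-4-treated cells. The knockout IL-4 call was lost without array b of LMP7ko_M0 (adjusted p = 0.0759) or a of LMP7ko_M2 (adjusted p = 0.0726), and the wild-type call without array b of WT_M0 (adjusted p = 0.0529), b of WT_M2 (adjusted p = 0.0577) or c of WT_M2 (adjusted p = 0.0526). Median scaling ended both the knockout call (adjusted p = 0.189) and the wild-type call (adjusted p = 0.0811). A second, dimmer Ifi30 probe gave 0.38 in knockout cells (adjusted p = 0.0973) and 0.46 in wild-type cells (adjusted p = 0.0595).

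**Figure D2:**
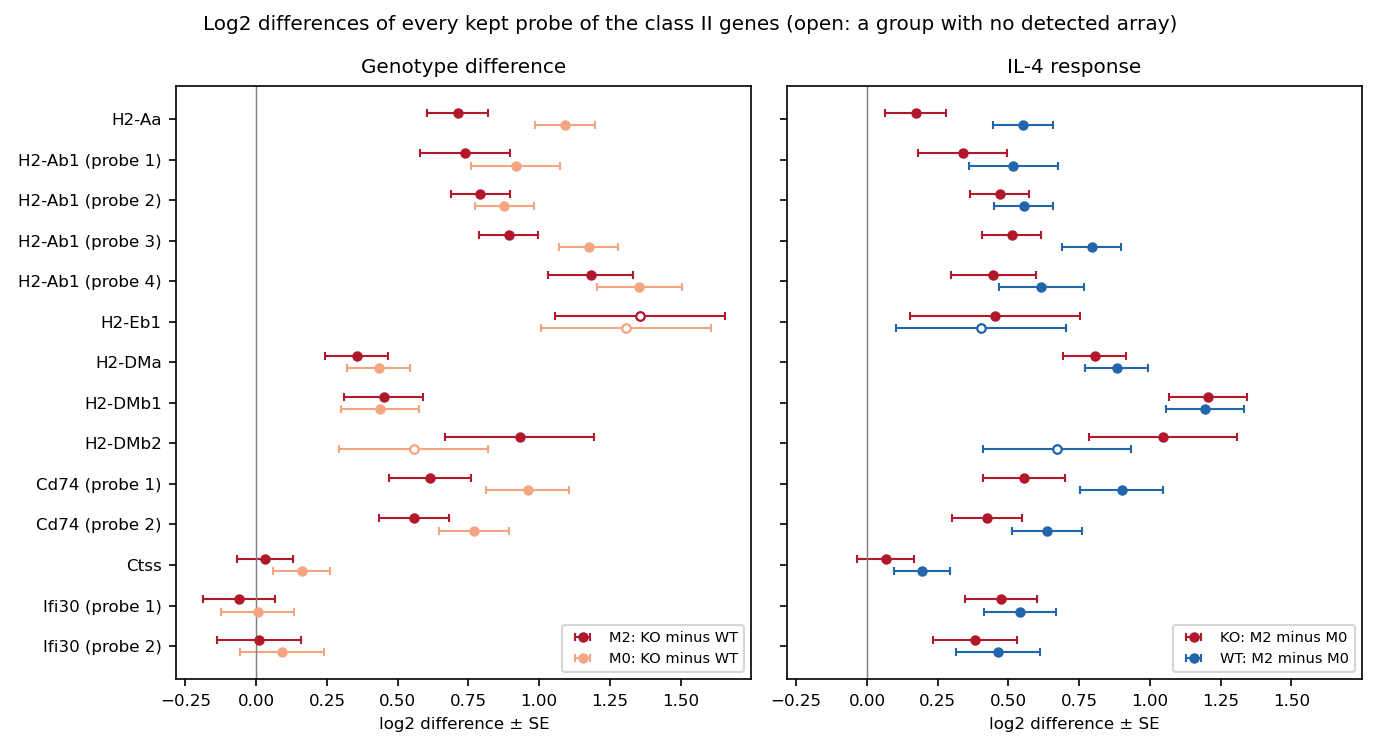
Log2 differences (horizontal axis, ± SE) of the 14 kept probes of the 9 tested class II genes, each a row. Left, knockout minus wild type in IL-4-treated and in unpolarized cells; right, M2 minus M0 in knockout and in wild-type cells. The 4 H2-Ab1 probes lie at 0.88 to 1.35 in unpolarized cells, and the Ctss and Ifi30 probes lie near 0 for genotype. Open points (H2-Eb1 and H2-DMb2) are fitted values against a group in which the probe was detected on no array and give no fold.

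By position, the members on chromosome 17 other than H2-Eb1, which has only a bound, had a median genotype difference of 0.56 log2 units in unpolarized cells, with values from 0.43 to 1.09 and 2 of 5 past the threshold, and of 0.71 in IL-4-treated cells, from 0.35 to 0.93 with 2 of 5 past it. With H2-Eb1 and, in unpolarized cells, H2-DMb2 at their bounds, the medians of all 6 were 0.52 and 0.72. The 3 tested members elsewhere had 0.96 (Cd74), 0.16 (Ctss) and 0.01 (Ifi30) in unpolarized cells and 0.61, 0.03 and -0.06 in IL-4-treated cells, in the same order. Cd74 lay within the range of those 5 chromosome 17 genes in both states. For IL-4 the median of the 6 chromosome 17 members was 0.63 log2 units in knockout cells; in wild-type cells it was 0.55 over 5 of them, with H2-DMb2 at its bound and H2-Eb1 below detection in both states. The 3 members elsewhere had medians of 0.47 and 0.54.

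The chromosome 17 genes around the members were read from a list of 29 neighbours on the array, of which 20 were tested. In unpolarized cells 1 was higher in the knockout, Psmb9, and 1 was lower, Psmb8 itself, with a median of -0.01 log2 units. Of all genes, 0.381% were called higher and 0.305% lower in that comparison. In IL-4-treated cells Psmb8 alone passed the threshold, with a median of -0.02, where 1.37% of all genes were called lower. Psmb9, which encodes the immunoproteasome subunit beside Psmb8, read 9.73, 9.80 and 9.67 in LMP7ko_M2 and 9.80, 9.84 and 9.82 in LMP7ko_M0, against 9.38, 9.22 and 9.25 in WT_M2 and 9.44, 9.09 and 9.05 in WT_M0. It was higher by 0.63 ± 0.116 log2 units in unpolarized knockout cells (adjusted p = 0.0358) and by 0.54 ± 0.0818 averaged over both states (adjusted p = 0.00448). The first of these calls was lost without any 1 array other than a of WT_M0 (adjusted p = 0.0535 to 0.137), after median scaling (adjusted p = 0.251), with only the groups compared (adjusted p = 0.243) and without the 3 arrays of lowest detected share (adjusted p = 0.0591). The second held in all 24 alternatives.

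RefSeq places 14 protein-coding genes from H2-Oa to H2-Eb2, all on the array, and 10 of them were tested. In chromosome order, Brd2 comes before H2-DMa, H2-DMb2 and H2-DMb1, which are followed by Psmb9, Tap1, Psmb8, Tap2 and H2-Ob, and then by H2-Ab1, H2-Aa and H2-Eb1. Brd2, a bromodomain gene at one end, differed by -0.25 ± 0.0983 log2 units in IL-4-treated cells (adjusted p = 0.299) and by -0.24 ± 0.0983 in unpolarized cells (adjusted p = 0.445). Tap2, a subunit of the peptide transporter of class I, differed by -0.38 ± 0.322 in IL-4-treated cells (adjusted p = 0.742) and by 0.29 ± 0.322 in unpolarized cells (adjusted p = 0.85). The members on both sides of Psmb8 had positive differences in both states. H2-Oa and H2-Ob, the subunits of the H2-DM inhibitor H2-O, and Tap1 and H2-Eb2 did not pass the detection filter. Effects of the targeted allele on the genes beside it and effects of the loss of Lmp7 cannot be told apart with these groups.

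**Figure D3:**
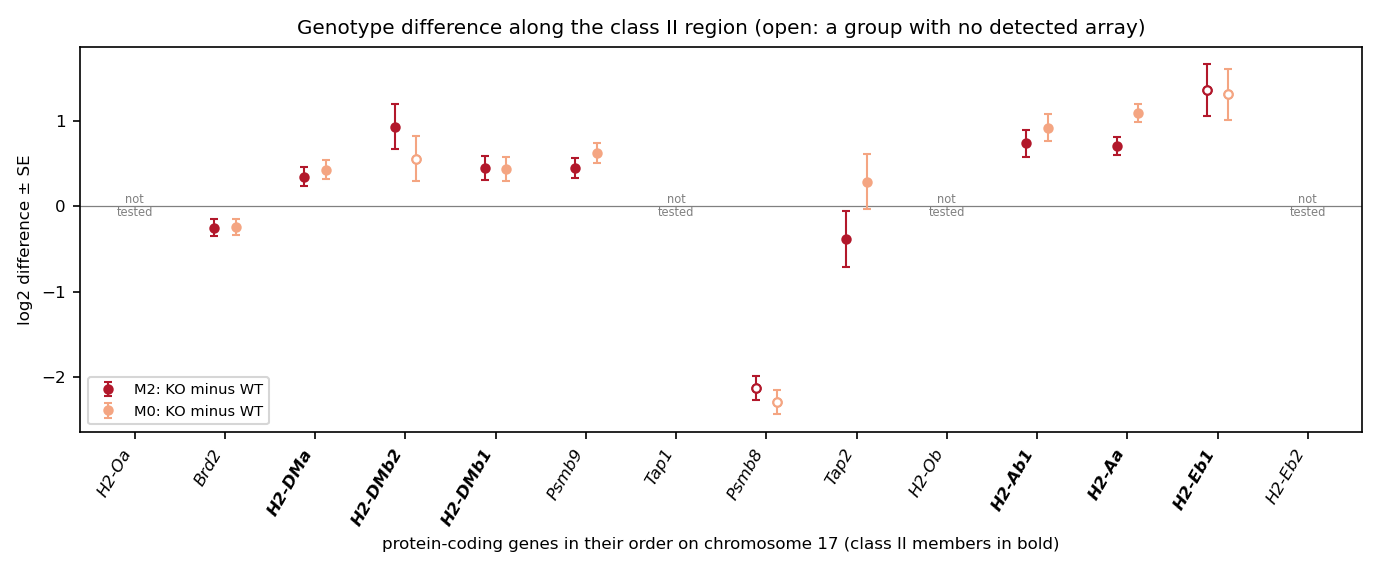
Log2 difference between knockout and wild type (vertical axis, ± SE) of the 14 protein-coding genes from H2-Oa to H2-Eb2 in their order on chromosome 17 (horizontal axis, not to scale), in IL-4-treated and in unpolarized cells. The 5 class II members other than H2-Eb1 lie between 0.35 and 1.09, and 4 genes were not tested. Open points (Psmb8, H2-Eb1 and, in unpolarized cells, H2-DMb2) are fitted values against a group in which the probe was detected on no array and give no fold.

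The arrays of both genotype groups were also compared for overlap. In unpolarized cells 6 of the 9 members were higher on all 3 knockout arrays than on any wild-type array, where 7.39% of all genes were; in IL-4-treated cells 7 were, where 8.97% of all genes were. With the 7 members detected on every array, the counts were 5 and 5. For IL-4, 7 of the 9 members in knockout cells and all 9 in wild-type cells were higher on all 3 M2 arrays than on any M0 array. Of all genes, 17.8% and 17.3% were. With the 7 detected on every array, 6 and 7 were. The shares in this paragraph are of all genes tested, dim ones included, so they are no like measure for those 7.

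Array a of LMP7ko_M0 had the lowest value of its group for 7 of the 9 members and the highest for none, and it was one of the 3 arrays of lowest detected share. Leaving out those 3 arrays kept the genotype calls of H2-Aa, H2-Ab1 and Cd74 in unpolarized cells. It ended the IL-4 calls of Cd74 (adjusted p = 0.0552) and Ifi30 (adjusted p = 0.115) in knockout cells and the genotype call of H2-DMa averaged over both states (adjusted p = 0.0638).

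The IL-4 responses of both genotypes were compared by their difference, knockout minus wild type. It passed the threshold for none of the 9 members under limma, and 0.0762% of all genes were called in either direction; 434 of the 6563 genes had an unadjusted p under 0.05. Of the 9, H2-Aa alone had an unadjusted limma p under 0.05, with a difference of -0.38 ± 0.147 log2 units (adjusted p = 0.723). The other differences ran from -0.34 ± 0.205 for Cd74 (adjusted p = 0.896) to 0.38 ± 0.372 for H2-DMb2 (adjusted p = 0.965). For H2-DMb1 the 95% interval was -0.41 to 0.44 log2 units, so differences in response up to that size are not excluded by this interval. Median scaling moved the median of all genes in this comparison to -0.102 log2 units.

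The order of the 4 groups differed between members. H2-Aa averaged 9.90 ± 0.0604 in LMP7ko_M0 and 9.36 ± 0.0811 in WT_M2 (SD, n = 3 each), so unpolarized knockout cells stood above IL-4-treated wild-type cells, whereas H2-DMb1 averaged 8.14 ± 0.272 in LMP7ko_M0 and 8.90 ± 0.114 in WT_M2, the other way round. This contrast, LMP7ko_M0 minus WT_M2, equals the mean genotype difference less the mean IL-4 difference, and it was fitted because this order had been seen, so its p-values are no independent support for the order. H2-Aa was higher by 0.54 ± 0.104 log2 units in LMP7ko_M0 (adjusted p = 0.0044), where 9.1% of all genes were called higher. H2-DMa, H2-DMb1 and Ifi30 were lower in LMP7ko_M0, with differences of -0.45 ± 0.108, -0.76 ± 0.137 and -0.54 ± 0.126 in that order (adjusted p = 0.0146, 0.00311 and 0.0129), where 8.94% of all genes were called lower. H2-Ab1 had 0.40 ± 0.157 by its brightest probe (adjusted p = 0.107) and 0.46 by the mean of its 4 probes (adjusted p = 0.00946), and 2 of the 4 probes passed on their own (adjusted p = 0.0272 and 0.00591). H2-Eb1, tested only through its signal in knockout cells, was at least 1.48-fold higher in LMP7ko_M0 (adjusted p = 0.0612), and it passed in 8 of 24 alternatives. Cd74 had 0.06 ± 0.145 (adjusted p = 0.84).

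Median scaling ended the calls of H2-Aa (adjusted p = 0.115), H2-DMa (adjusted p = 0.195) and Ifi30 (adjusted p = 0.134) in that contrast. The H2-DMa call was also lost without array a of LMP7ko_M0 (adjusted p = 0.0516) or a of WT_M2 (adjusted p = 0.0517), and that of Ifi30 without array b of LMP7ko_M0 (adjusted p = 0.0522) or b of WT_M2 (adjusted p = 0.0547).

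**Figure D4:**
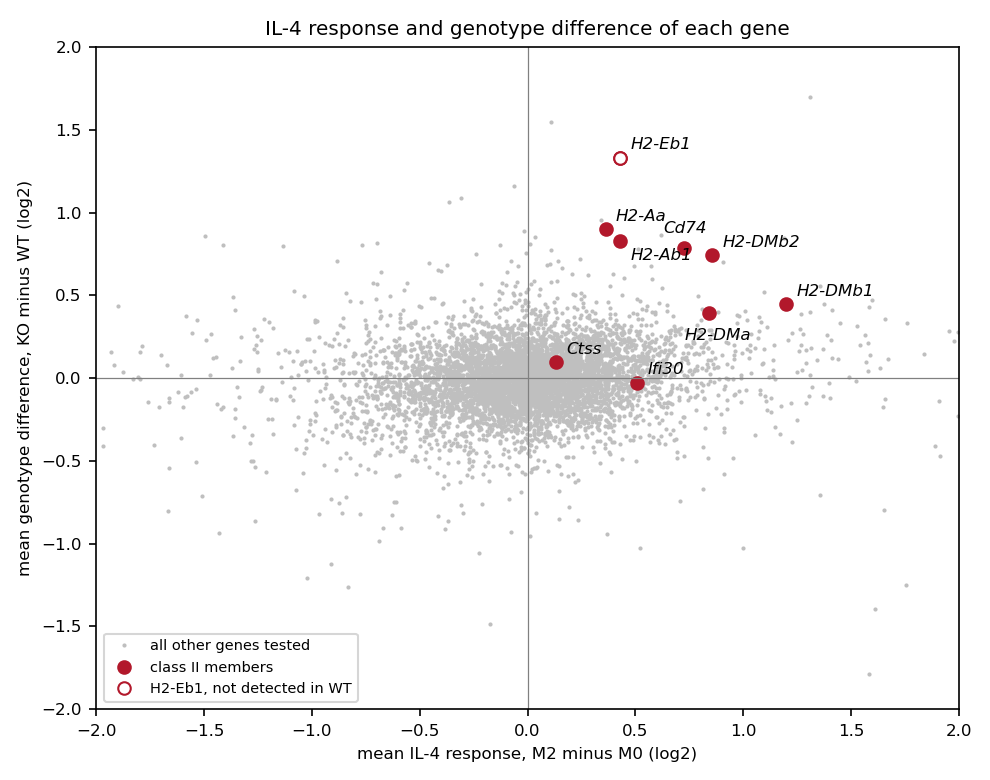
Mean IL-4 difference over both genotypes (horizontal axis, log2) against mean genotype difference over both states (vertical axis, log2) for the 6563 genes tested, with the 9 class II genes in red. H2-Aa and H2-Ab1 lie high and near the vertical axis, as does H2-Eb1, drawn open because its genotype value is fitted against undetected wild-type arrays. H2-DMb1 and H2-DMa lie further right and Ifi30 near the horizontal axis; 25 genes lie outside the plotted range of 2 log2 units on either side.

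Of 17 regulators of class II transcription on the array, 12 were tested. The RFX subunit genes Rfx5, Rfxap and Rfxank did not pass the detection filter, and the NF-Y subunit genes Nfya, Nfyb and Nfyc were tested and passed no threshold. By genotype, none of the 12 passed in unpolarized cells, and Irf4, a lymphoid and myeloid interferon regulatory factor, passed in IL-4-treated cells. Of all genes, 0.67% were called higher in the latter comparison. Irf4 read 8.40, 8.42 and 8.58 in LMP7ko_M2 and 7.52, 7.59 and 7.96 in WT_M2, and it was not detected on any M0 array. It was at least 5.39-fold higher in LMP7ko_M2 than in LMP7ko_M0 and at least 3.21-fold higher in WT_M2 than in WT_M0, and its genotype difference in IL-4-treated cells was 0.78 log2 units (adjusted p = 0.0128). That call was lost after median scaling (adjusted p = 0.168) and when only the groups compared were fitted (adjusted p = 0.0909). It was also lost without array c of LMP7ko_M2 (adjusted p = 0.0551), array a of WT_M2 (adjusted p = 0.0624), b of WT_M2 (adjusted p = 0.0659) or the 3 arrays of lowest detected share (adjusted p = 0.0517). With IL-4, 3 of the 12 passed in knockout cells, Irf4 higher and Irf8 and Prdm1 lower. In wild-type cells 2 passed, Irf4 higher and Irf8 lower. Of all genes, 21.6% were called in either direction in knockout cells and 16.1% in wild-type cells, shares near those of this list. Irf8, a related factor of the macrophage lineage, fell with IL-4 by 1.00 log2 units in knockout cells (adjusted p = 0.00145) and by 0.92 in wild-type cells (adjusted p = 0.00373). Prdm1, a transcriptional repressor known to silence Ciita in plasma cells, was detected on no LMP7ko_M2 array and on 1 LMP7ko_M0 array, and its call (adjusted p = 0.0494) was lost in 16 of 24 alternatives.

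Of 17 other genes of endosomal processing and class II turnover on the array, 15 were tested and none differed by genotype in either state, with differences from -0.47 to 0.42 log2 units in unpolarized cells. With IL-4, 4 of 15 fell in knockout cells, where 11.3% of all genes were called lower, and 2 of 15 fell in wild-type cells, where 7.62% were; none rose. Ctsd, the gene of cathepsin D, fell by 0.63 log2 units in knockout cells (adjusted p = 0.00208) and by 0.51 in wild-type cells (adjusted p = 0.00976). Ctsh, the gene of cathepsin H, fell by 0.63 in knockout cells (adjusted p = 0.00776) and had -0.38 in wild-type cells (adjusted p = 0.0938). Median scaling ended both Ctsd calls (adjusted p = 0.0816 in knockout and 0.315 in wild-type cells) and the Ctsh call (adjusted p = 0.0516). The members that rose with IL-4 did so while the median of these 15 genes was -0.35 log2 units in knockout and -0.21 in wild-type cells.

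Of 8 costimulatory genes on the array, 5 were tested. With IL-4, 3 of the 5 passed in each genotype, Icam1 higher and Cd48 and Cd274 lower. Of all genes, 21.6% were called in either direction in knockout cells and 16.1% in wild-type cells. With IL-4, Icam1, an adhesion ligand for T cells, rose by 0.51 log2 units in knockout cells (adjusted p = 0.00791) and by 0.56 in wild-type cells (adjusted p = 0.00727). Cd48, a ligand of CD2 family receptors, fell by 0.56 log2 units in knockout cells (adjusted p = 0.00334) and by 0.85 in wild-type cells (adjusted p = 0.000388). Cd274 had -0.46 in knockout cells (adjusted p = 0.0187) and -0.39 in wild-type cells (adjusted p = 0.0467), calls lost in 4 and 15 of 25 alternatives. Averaged over both states Cd48 was 0.48 log2 units higher in knockout cells (adjusted p = 0.00556), and Cd83, known to stabilise class II at the cell surface, was 0.75 higher (adjusted p = 0.00721), a call lost without the 3 arrays of lowest detected share (adjusted p = 0.0638). In IL-4-treated cells Cd48 alone was called by genotype, 0.63 higher in the knockout (adjusted p = 0.014), and lost in 5 of 25 alternatives. Of all genes, 1.4% were called higher in the first comparison and 0.67% in the second. Median scaling ended the genotype calls of Cd48 averaged over both states (adjusted p = 0.131) and in IL-4-treated cells (adjusted p = 0.333). It also ended the IL-4 call of Cd48 in knockout cells (adjusted p = 0.0502) and both Icam1 calls (adjusted p = 0.132 and 0.0709). Among 8 tested genes known to be induced by interferon-gamma, which also drives class II, 1 was called by genotype. It was Gbp2, 1.06 log2 units higher in unpolarized knockout cells (adjusted p = 0.049), where 0.381% of all genes were called higher. Leaving out any 1 array other than a of WT_M0 ended that call (adjusted p = 0.0537 to 0.193), as did the replicate block on the authors' values (adjusted p = 0.0532).

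Markers of other cells that carry class II were read beside these results, and their part in them was not tested. Of 7 B cell markers 1 was detected on any array, and Cd79a, Cd79b, Ms4a1 and Pax5 were undetected on all 12 arrays; their summed intensity was 104 to 153 in LMP7ko_M2, 63 to 173 in LMP7ko_M0, 156 to 170 in WT_M2 and 48 to 218 in WT_M0. Of 10 dendritic cell markers 2 were detected on any array, and Flt3, Zbtb46, Ccr7 and Xcr1 were undetected on all; the sums were 112 to 258 in LMP7ko_M2, 37 to 66 in LMP7ko_M0, 137 to 195 in WT_M2 and 16 to 157 in WT_M0. The median B cell sum was 105 in LMP7ko_M2, 96 in LMP7ko_M0, 164 in WT_M2 and 121 in WT_M0. The median dendritic cell sum was 170 in LMP7ko_M2, 56 in LMP7ko_M0, 164 in WT_M2 and 105 in WT_M0. Most of these markers were undetected on all arrays, which limits what the sums can show.

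Of 8 monocyte and interstitial macrophage markers 6 were detected, with Ccr2 and Cx3cr1 undetected on all arrays. The sums were 5514 to 6151 in LMP7ko_M2 and 3737 to 4626 in LMP7ko_M0. They were 8355 to 9583 in WT_M2 and 5412 to 5961 in WT_M0. Only 1 of the 8 markers was detected on every array. In WT_M2, where the sums were highest, 2 of the 8 were detected. Such a sum weighs bright genes most, and what it says of cell numbers was not tested. Of the 6 tested, 1 was called higher and 1 lower in LMP7ko_M2 than in WT_M2, with a median of 0.21 log2 units. In LMP7ko_M0 against WT_M0, 1 was called higher and none lower, with a median of 0.19. Of all genes, 0.67% were called higher and 1.37% lower in IL-4-treated cells, and 0.381% and 0.305% in unpolarized cells. In each state 4 of 6 differences were positive. Averaged over both states 2 were higher in knockout cells, the complement genes C1qb and C1qc (C1qc by 0.65 log2 units, adjusted p = 0.0151), and 1 was lower, the macrophage elastase gene Mmp12 (-0.39 log2 units, adjusted p = 0.00998). Of all genes, 1.4% were called higher and 1.84% lower in that comparison. Leaving out the 3 arrays of lowest detected share ended the calls of C1qc (adjusted p = 0.0821) and Mmp12 (adjusted p = 0.071). C1qb was detected on 2 of 3 arrays in each knockout group and on no wild-type array, so it was tested only through its signal in knockout cells, and it was at least 1.16-fold higher in LMP7ko_M2 than in WT_M2 and at least 1.64-fold higher in LMP7ko_M0 than in WT_M0.

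Of the 10 tested alveolar macrophage markers, 1 was called lower in each state, Marco, and none higher. Of all genes, 1.37% were called lower in IL-4-treated and 0.305% in unpolarized cells. The median of the 10 was -0.05 log2 units in IL-4-treated cells, with 3 of 10 positive, and 0.07 in unpolarized cells, with 7 of 10 positive. Marco, a scavenger receptor of alveolar macrophages, was lower in unpolarized knockout cells, at 9.68, 9.49 and 9.83 in LMP7ko_M0 against 10.88, 11.04 and 10.89 in WT_M0 (-1.27 log2 units, adjusted p = 0.00035). Averaged over both states 2 of the 10 were called lower and none higher, where 1.84% of all genes were called lower. The 2 were Marco (-1.21 log2 units, adjusted p = 2.5e-05) and Krt79 (-1.01, adjusted p = 0.0193). The Krt79 call was lost in 4 of 23 alternatives. Of 7 neutrophil markers 3 were detected, with S100a9, Mpo and Elane undetected on all arrays; the sums were 300 to 618 in LMP7ko_M2 and 267 to 419 in LMP7ko_M0, against 166 to 217 in WT_M2 and 167 to 227 in WT_M0. Among them the chemokine receptor gene Cxcr2 was higher in LMP7ko_M2 than in WT_M2 (1.86 log2 units, adjusted p = 0.00571), where 0.67% of all genes were called higher. The 3 tested had a median of 0.16 log2 units there, from -0.08 to 1.86, with 2 positive and Cxcr2 alone called. In unpolarized cells the median was 0.55, with all 3 positive. Cxcr2 alone was called there (1.54, adjusted p = 0.0297), where 0.381% of all genes were called higher. That call was lost in 9 of 24 alternatives. The part of these genes and cells in the class II differences was not tested.

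The genes whose values followed the chain genes most closely were found by Pearson's correlation over the 12 arrays with the mean of the centred values of H2-Aa, H2-Ab1 and H2-Eb1, as a description. Outside the members these were Rpl30 (r = 0.952), Exosc9 (r = 0.94), Tmem229b (r = 0.927), Akap10 (r = 0.925) and 1700123O20Rik (r = 0.908), none of which lies on chromosome 17. Among the members Cd74 had r = 0.923, H2-DMb2 0.752, H2-DMa 0.688, Ctss 0.671, H2-DMb1 0.663 and Ifi30 0.245. All these points share the same 12 arrays and the same 4 group means.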

How the data were processed

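The deposited table of background-subtracted, non-normalized intensity values with a detection p-value per probe and array, per the file headers, was the starting point; RNA had been amplified with the Ovation PicoSL WTA System V2 and biotin-labelled, per the labels' protocols, and the scanner software is not given in the sources used here. Intensities were background-corrected by normexp from the detection p-values (nec, offset 16), quantile normalized and put on the log2 scale. Of 25697 probes, 9200 reached a detection p under 0.05 on 3 or more of the 12 arrays and were retained, of which 8626 carry 1 gene symbol of GEO's platform annotation. The platform annotation gave 1 symbol for 23978 probes, none for 1719 and several for none of them. The kept probe of highest mean stood for its gene.

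A single limma model with 4 group means (R 4.3.3, limma 3.58.1; 8 residual degrees of freedom) was fitted over 6563 genes, with Benjamini-Hochberg adjustment over all of them and 0.05 as threshold. It was tested on simulated data. The authors' deposited intensity table, normalized between arrays on a linear scale by an unstated method, served as an alternative after taking log2; its values run from 16 to 11275. The number of arrays limits the precision. All members and list genes past the threshold were eligible to be named, up to 6 per list, with 5 genes of like pattern. The members and lists were chosen with earlier results of these data known, and the comparison of LMP7ko_M0 with WT_M2 was added after the values had been seen. Figures were drawn with matplotlib 3.10.9.

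Arrays of the same replicate number in the labels had weakly correlated deviations from their group means in some comparisons. These were IL-4 in knockout cells (r = 0.363, 0.202 and 0.18) and genotype in unpolarized cells (r = 0.383, 0.249 and 0.116). In the other comparisons at least 1 pair had r under 0.1. The highest values, 0.363 and 0.383, were those of replicate 1. They join arrays a of LMP7ko_M2, LMP7ko_M0 and WT_M0, which had the lowest detected shares (25.5%, 26.1% and 27.3%). Pairing of samples and likeness of these arrays cannot be told apart here.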

Additional observations from a re-analysis of the deposited data

How the results depend on the processing

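Of the class II members, 3 were past the threshold for genotype in unpolarized cells. Fitting only the groups compared gave 1, and leaving out 1 array gave 1 to 4, with 1 without array b or c of LMP7ko_M0. The share of all genes called in either direction was 0.686%, and 0.213% with only the groups compared. It was 0.259% without array b of LMP7ko_M0 and 0.274% without array c. For genotype in IL-4-treated cells the count was 3; it was 5 with the replicate block on the authors' values, 5 with detection at p under 0.01 on all 12 arrays, 1 after median scaling, 1 with no filter on dim probes, 0 when only the groups compared were fitted, and 1 to 3 with 1 array left out, with 1 without array b of LMP7ko_M0, b or c of LMP7ko_M2, c of WT_M0, or any of WT_M2. For IL-4 in knockout cells the count was 5; median scaling gave 3, fitting only the groups compared gave 3, and leaving out 1 array gave 3 to 5, with 3 without array c of LMP7ko_M2. For IL-4 in wild-type cells it was 6, and 3 after median scaling. Median scaling moved the share of all genes called from 21.6% to 11.4% in knockout and from 16.1% to 7.15% in wild-type cells. Fitting only the groups compared moved that share to 15.4% in knockout cells. The LMP7ko_M0 to WT_M2 comparison had 4, and 1 after median scaling, where the share of all genes called went from 18% to 8.53%. For genotype in IL-4-treated cells that share was 2.04%. It was 7.05% of 3005 genes with detection at p under 0.01 on all 12 arrays, and 3.23% with the block. No filter gave 0.753%, median scaling 0.716% and fitting only the groups compared 0.686%, and leaving out 1 array gave 0.716% to 1.72%. The replicate block moved no other count by over 1.5 times: 4 for genotype in unpolarized cells, 7 for the mean over both states, 5 and 6 for IL-4 in knockout and wild-type cells. With the block, for IL-4 in knockout cells and genotype in unpolarized cells, member and list-gene calls differed from those above for H2-Eb1 and Gbp2 alone. Both were genotype calls in unpolarized cells, and H2-Eb1 also passed on the authors' values without the block (adjusted p = 0.0447). The cause of these shifts was not tested, except that fitting only the groups compared uses fewer arrays.

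Of the single-gene values, 34 changed sign, all of them of differences that did not pass the test. Ctss for IL-4 in knockout cells was -0.0298 without the 3 arrays of lowest detected share and -0.0121 to 0.11 with 1 array left out. H2-DMb1 for the difference of IL-4 responses was -0.0383 with array weights, -0.0394 after median scaling, -0.0981 without the 3 arrays, and -0.14 to 0.13 with 1 left out; H2-Eb1 was -0.069 on the authors' values with or without the replicate block, -0.0022 after median scaling, and -0.21 to 0.42; Ifi30 was -0.15 to 0.0117. Ifi30 for genotype in unpolarized cells was -0.0262 with array weights, -8e-04 with the detected share as covariate, -0.02 without the 3 arrays, and -0.0735 to 0.0835 with 1 left out; averaged over both states it was 0.0113 with the mean of its probes, 0.0075 after median scaling, and -0.0721 to 0.0109. For LMP7ko_M0 against WT_M2, Ctss was 0.0977 after median scaling and 0.0434 without the 3 arrays, and with 1 array left out Cd74 was -0.0357 to 0.1861, Ctss -0.0798 to 0.0434 and H2-DMb2 -0.3177 to 0.1965.

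The genotype calls of H2-Aa in unpolarized cells and the IL-4 calls of H2-DMa and H2-DMb1 in both genotypes held in all 25 alternatives run. The IL-4 call of Cd74 in wild-type cells held in all 25 as well. Averaged over both states, the genotype calls of H2-Aa, H2-Ab1 and Cd74 held in all 24 alternatives. That of H2-Eb1, tested only through its signal in knockout cells, held in all 23. Of 66 calls of list genes, 30 held throughout and none reversed. H2-Eb1, H2-DMb2 and Ciita are limited by signal over background.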
